A study of Homo sapiens with 7 samples.

Results

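The 9 genes described here were LEF1, TCF7, TCF7L1 and TCF7L2 (the LEF/TCF factors), CTNNB1 (beta-catenin) and the corepressor genes TLE1, TLE2, TLE3 and TLE4. They were taken by symbol from the 62238 genes of the deposited exon counts, and all 9 were among the 24887 genes tested. All samples came from MEG-01, a human megakaryoblastic leukemia cell line that the labels describe as carrying lentiviral transgenes and harvested in exponential growth at passage 5. RNA-seq was available for 1 control library and for 2 lines in which RBM15, an RNA-binding protein that acts on splicing, was knocked down with the short hairpin RNAs shRBM15#1 and shRBM15#2. RNA immunoprecipitation and sequencing (RIP-seq) was done in 4 libraries with an RBM15 antibody or normal immunoglobulin (IgG), and the deposited list holds the read counts of 1515 sites that the authors selected for more reads with RBM15. The spread between samples comes from the 2 knockdown lines alone, because the control has no replicate, and each line carries a different hairpin.

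In canonical Wnt signaling, a ligand binds Frizzled and LRP receptors, which stops the destruction complex from marking beta-catenin for degradation. Beta-catenin then enters the nucleus and binds the amino end of a LEF/TCF factor, which sits on DNA through its HMG box but activates little by itself. Without beta-catenin, the same factors hold TLE proteins of the Groucho family, which recruit histone deacetylases and keep target genes off. In blood cells LEF1 and TCF7 are best known from developing lymphocytes, and LEF1 also acts in myeloid progenitors.

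Of the 9 genes, LEF1 and TLE3 each had 1 listed RIP-seq site, both in an intron, and the other 7 had none. Among 24122 tested genes with a symbol, 3.76% had a listed site, and the share was 9.2% among the 8094 genes at least as abundant per kilobase as TLE3. The site sequences are shown because they are the stretches of LEF1 and TLE3 that the authors listed for more reads with RBM15. They are the central 300 bases of each site in GRCh37, given 5′ to 3′ in the sense of the transcript, with runs of 5 or more T in capitals.
LEF1 site, chr4:109003511-109003810, minus strand: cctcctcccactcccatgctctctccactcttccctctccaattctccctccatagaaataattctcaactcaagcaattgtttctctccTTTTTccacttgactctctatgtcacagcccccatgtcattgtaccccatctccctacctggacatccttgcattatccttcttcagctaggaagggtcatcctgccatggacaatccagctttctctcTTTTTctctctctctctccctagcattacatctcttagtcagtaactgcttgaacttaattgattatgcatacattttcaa
TLE3 site, chr15:70342929-70343228, minus strand: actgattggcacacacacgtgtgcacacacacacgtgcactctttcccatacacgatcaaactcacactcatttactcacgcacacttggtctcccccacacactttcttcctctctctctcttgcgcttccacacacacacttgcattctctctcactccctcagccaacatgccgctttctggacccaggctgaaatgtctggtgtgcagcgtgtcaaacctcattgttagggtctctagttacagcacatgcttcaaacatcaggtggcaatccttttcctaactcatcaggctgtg

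The LEF1 window held the motif TTTTT at 2 positions and the TLE3 window at 0, and 18.4% of the 752 intronic site windows of this length held it on the transcribed strand. On the other strand, read as AAAAA, neither window had a match, against 12.5% of the intronic windows. T made up 35.3% of the LEF1 window, more than in 88.7% of intronic windows, whereas the TLE3 window had 27.7% T against a median of 25.3%. Both windows had 34.7% C, close to the intronic median of 36.7%. GGACT, a common form of the m6A methylation motif, was in neither window on the transcribed strand and in 8.38% of the intronic ones.

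The LEF1 site (chr4:109003508-109003812) lay 699 bases after the end of the exon upstream of it and 682 bases before an alternative exon of 84 bases. The TLE3 site (chr15:70342926-70343230) lay 499 bases after one exon and 382 bases before the next, near the 3′ end of the gene, at 93.9% of the gene's span. At the LEF1 site, 2 reads were counted in the normal IgG library and 88 in the anti-RBM15 library. At the TLE3 site the normal IgG library held 3 reads and the anti-RBM15 library 129. Both sites were below the median of the 752 intronic sites in anti-RBM15 reads, a count that depends on RNA level: 9.57% had fewer than LEF1 and 29.9% fewer than TLE3. The ratios of anti-RBM15 to normal IgG reads, 44 for LEF1 and 43 for TLE3, were near the intronic median of 42.7. They are ratios of raw counts, not scaled for depth, because the total reads of these libraries are not given. Over all listed sites the normal IgG library held 28387 reads and the anti-RBM15 library 807871. Since sites entered the list for more reads with RBM15, the ratios describe that difference and test nothing.

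The other 2 RIP-seq libraries were left without a group, because their antibody labels go against the side the deposited comparison puts them on. The library labelled normal IgG held 72 reads at the LEF1 site and 71 at the TLE3 site. The library labelled RBM15 held 0 and 2. The former exceeded the latter at all 1515 listed sites.

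**Figure D1:**
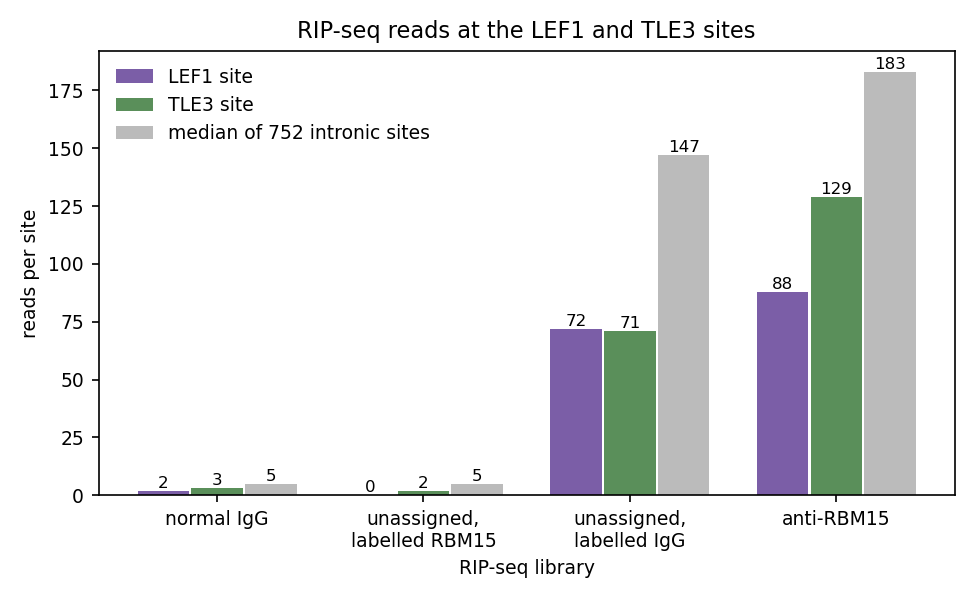
Reads per site (vertical axis, linear) in the 4 RIP-seq libraries (horizontal axis) at the LEF1 site, the TLE3 site and the median of 752 intronic sites, 1 library a bar. The anti-RBM15 library held 88 and 129 reads, and the unassigned library labelled IgG held 72 and 71.

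The read totals on exon bins were 53230029 in the control, 41629454 in shRBM15#1 and 52458857 in shRBM15#2. The shRBM15#1 library stood apart in its counts on lines that name no gene, which include ambiguous reads. They made up 32.0% of all its counts, against 23.2% and 23.5% in the control and shRBM15#2. It also had reads in more bins (473473 against 410882 and 445666). RBM15 itself had 3970 reads in the control, 1957 in shRBM15#1 and 2121 in shRBM15#2. Its log2 fold change was -0.93 ± 0.23 (SE; edgeR quasi-likelihood adjusted p = 0.0908), lower in both lines but not past the limit of an adjusted p under 0.01.

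Within the family, beta-catenin RNA was by far the most abundant, and LEF1 and TLE3 were well above the other LEF/TCF and TLE genes. Levels were compared as CPM (reads scaled to the library's total with edgeR's trimmed mean of M-values, TMM) per kilobase of the gene's exon bins. CTNNB1 (chromosome 3, 41236328 to 41301587) stood at 57.4 in the control, 50.2 in shRBM15#1 and 70.0 in shRBM15#2. In the control it was above 96.2% of tested genes.

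LEF1 (chromosome 4, 108968701 to 109090112, minus strand) came next, with 14.6, 10.5 and 11.6 in the same order. TLE3 (chromosome 15, 70340129 to 70390515, minus strand) followed with 4.41, 4.33 and 4.01. The ranges of these 3 genes over the 3 libraries did not overlap, and the control levels of CTNNB1 and LEF1 differed 3.94-fold, those of LEF1 and TLE3 3.31-fold. The TLE3 length includes 7 bins found only in a retained-intron transcript. Its other 74 bins stood at 6.85, 6.69 and 6.14, still below LEF1. Levels also depend on how reads in several bins were counted, which is not stated.

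All other members were below 1 on this scale in every library. TCF7L2, the factor best known from intestine and pancreas, had 0.632, 0.734 and 0.433. TCF7, which encodes the T-cell factor TCF1, had 0.44, 0.564 and 0.35. These ranges overlapped, so the order of TCF7L2 and TCF7 was not resolved.

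TLE4, at 0.101, 0.203 and 0.118, TLE2, at 0.1, 0.232 and 0.185, and TCF7L1, at 0.087, 0.121 and 0.0695, formed a lower group with overlapping ranges. TLE1 was the lowest in the control (0.0124) but reached 0.146 in shRBM15#1 and 0.043 in shRBM15#2, so that its range overlapped that of TCF7L1. It rested on 3 reads in the control, 32 in shRBM15#1 and 11 in shRBM15#2, and a count of 3 has an exact 95% Poisson interval of 0.619 to 8.77 reads for counting error only.

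**Figure D2:**
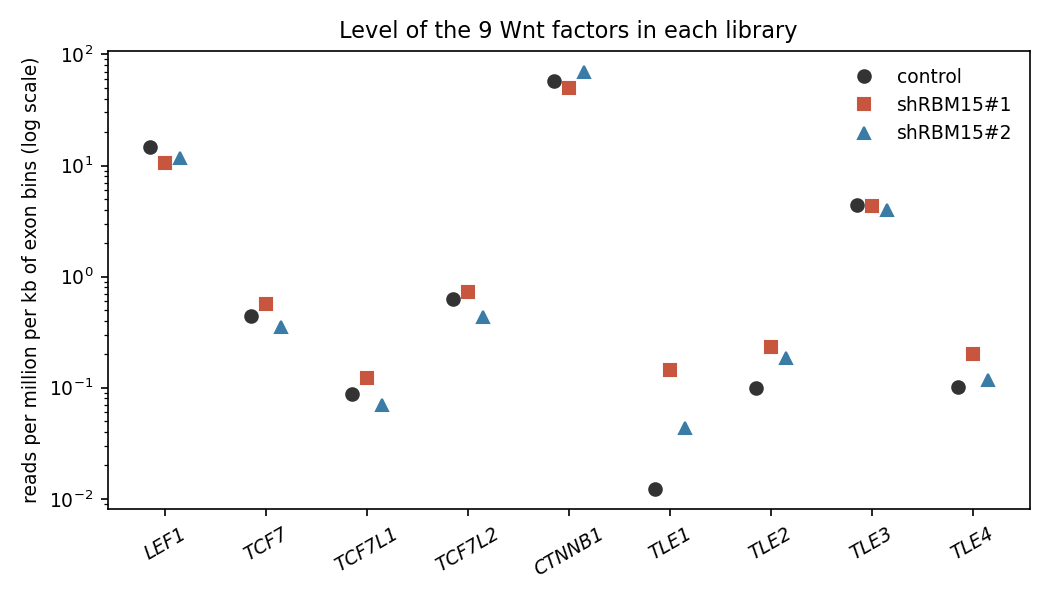
Level of each of the 9 genes (horizontal axis) as TMM-scaled CPM per kilobase of exon bins (vertical axis, log scale), 1 point a library. CTNNB1, LEF1 and TLE3 lie above 4 in every library and all other members below 1.

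The comparison of the knockdown lines with the control addressed whether RNA levels moved when RBM15 was reduced. None of the 9 genes passed an adjusted p under 0.01 in edgeR's quasi-likelihood test, and 1 (TLE1) had an unadjusted p under 0.05. TLE1 passed the filter of 30 summed reads only through its reads in the knockdown lines, so that its p rests on a filter that the difference itself decides. Over all genes, 86 of 24887 (0.346%) passed the adjusted limit, 17 higher and 69 lower, and 18.8% had an unadjusted p under 0.05. DESeq2 called none of the 6 members to which it gave an adjusted p, and gave none for TCF7L1, TLE1 and TLE2. In these bulk samples, fewer cells that express a gene and less RNA per cell cannot be told apart.

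LEF1 had 3867 reads in the control, 2513 in shRBM15#1 and 3242 in shRBM15#2. After scaling, both knockdown lines were lower, by log2 differences of -0.48 and -0.33, and the fitted log2 fold change was -0.40 ± 0.23 (SE, adjusted p = 0.373). LEF1-AS1, an antisense RNA that starts beside the 5′ end of LEF1, had 223, 217 and 199 reads, with -0.06 ± 0.38 (SE, adjusted p = 0.954).

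CTNNB1 had 18759, 14859 and 24131 reads, and the lines lay on either side of the control (-0.19 and 0.29). Its fitted log2 fold change was 0.07 ± 0.26 (SE). TLE3, with 2757, 2451 and 2643 reads, had a fitted value of -0.08 ± 0.23 (SE), with -0.03 and -0.14 in the lines. Neither value was larger than its standard error.

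TCF7 had 219, 254 and 184 reads and TCF7L2 158, 166 and 114. In both genes shRBM15#1 was above the control and shRBM15#2 below it, and the fitted log2 fold changes were 0.05 ± 0.42 for TCF7 and -0.12 ± 0.45 for TCF7L2 (SE). TCF7L1, the factor most tied to repression in stem cells, gave the same order from 19, 24 and 16 reads.

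Among the corepressors of low abundance, the control was the lowest library for TLE1, TLE2 and TLE4. TLE2 had 20, 42 and 39 reads (log2 fold change 1.05 ± 0.65, SE, adjusted p = 0.418). TLE4 had 39, 71 and 48 reads (0.66 ± 0.58, SE, adjusted p = 0.581). TLE1 had 0.0606, 0.715 and 0.211 CPM, and the fit gave an adjusted p of 0.247.

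Tested genes of this abundance had fold changes above 0 on balance across the transcriptome, and some of them passed the filter only through knockdown reads. The 7856 tested genes with at least 30 but fewer than 100 summed reads, the class of TLE1 and TCF7L1, had a median log2 fold change of 0.61, with 0.75 in shRBM15#1 and 0.26 in shRBM15#2. In the next class, below 300 reads, which holds TLE2 and TLE4, the median over 4037 genes was 0.13. The 7266 genes with 3000 or more summed reads, the class of LEF1, CTNNB1 and TLE3, had a median of -0.13. The part of this pattern in the values of TLE1, TLE2 and TLE4 was not tested.

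**Figure D3:**
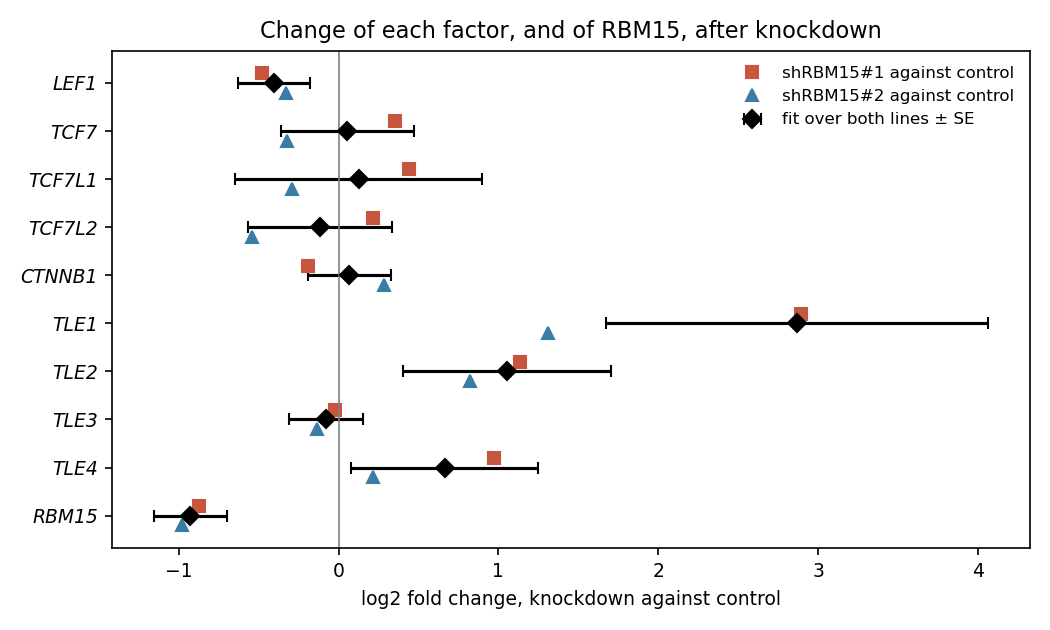
log2 fold change of the 9 genes and RBM15 after knockdown (horizontal axis). Diamonds with bars give the fit over both lines ± SE, squares and triangles the log2 difference of each line from the control with a prior count of 2, and in CTNNB1, TCF7, TCF7L1 and TCF7L2 the lines fall on either side of 0.

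LEF1 transcripts can differ at their 5′ end and at the alternative exon next to the RIP-seq site, so their use was followed bin by bin. An exon bin is a stretch of exon that the same set of annotated transcripts shares, numbered along the chromosome, so that on the minus strand high numbers are 5′. A relative log2 fold change compares a bin with the rest of its gene. Of 57 LEF1 bins, 38 had at least 30 summed reads and were tested with edgeR's diffSpliceDGE, and none reached an unadjusted p under 0.05, and the adjusted p was 1 for each. Over all genes, 1.45% of 234192 bins passed an unadjusted p under 0.05 with a fold above 1.2, and 0.0205% an adjusted p under 0.05.

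Most LEF1 values differed in sign between the sides of the site. Of the 14 tested bins 5′ of it, 12 had a relative log2 fold change above 0, and of the 24 tested bins 3′ of it, 19 were below 0. The 5′ bins below 0 were 056 and 057, at the 5′ end of the gene. Because each value is relative to the gene, higher values on 1 side go with lower values on the other. The 2 sides are therefore not separate observations, and such sign counts were not made in other genes. The counting rule was read from the values and is not stated: bin 043 of CTNNB1, 1 base long, held 338, 254 and 458 reads, from which a read appears to count in every bin it overlapped. Neighbouring bins then share reads, and these counts are a description. Summed over bins, 22.2% of LEF1 reads lay 5′ of the site in the control (95% Wilson interval 20.9 to 23.5%), 27.2% in shRBM15#1 (25.5 to 28.95%) and 27.9% in shRBM15#2 (26.4 to 29.5%). Both lines were above the control and their intervals, which cover counting error only and treat bin counts as separate reads, did not reach the control's.

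When every gene with at least 1000 reads was split at the same fraction of its bin length (48.3% from the 5′ end), the share of reads 5′ of the split was higher in both lines by at least the smaller LEF1 shift, 5.02 percentage points, in 5.07% of 9657 genes. The median shift over these genes was 0.383 points in shRBM15#1 and 0.345 in shRBM15#2. This set LEF1 among the larger shifts, but not apart from the other genes.

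**Figure D4:**
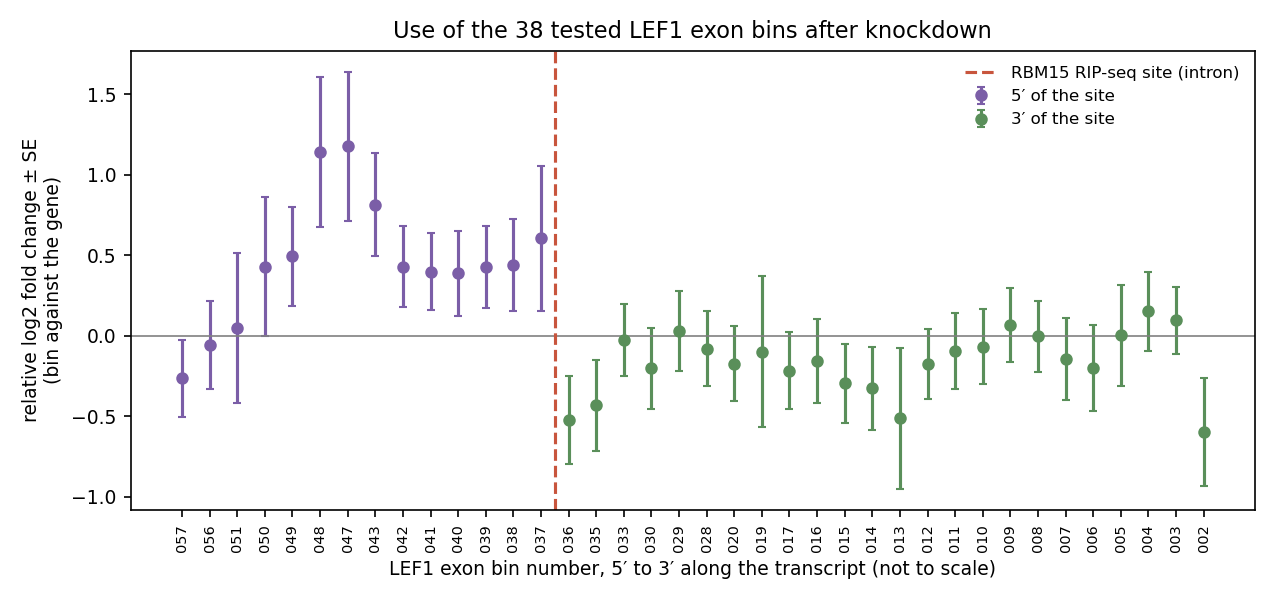
Relative log2 fold change ± SE (vertical axis) of the 38 tested LEF1 bins, ordered 5′ to 3′ along the transcript and not to scale (horizontal axis), with the RIP-seq site as a dashed line. Of the bins left of the line 12 of 14 lie above 0, and of those right of it 19 of 24 lie below 0, but none passed an unadjusted p under 0.05. Values are relative to the gene, so the signs left and right of the line depend on each other.

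The alternative exon 3′ of the site encodes 28 codons of the region between the beta-catenin-binding end and the HMG box. It is kept in 2 and skipped in 3 of the 6 protein-coding LEF1 transcripts of the annotation (GENCODE v44 lifted to GRCh37). Of the 2 that keep it, the shorter does not continue downstream: its model ends at position 109002740, beside the 3′ end of the exon. Its sequence is given because it is the nearest exon downstream of the site. The 84 exon bases are in capitals, with 20 intron bases on either side.
LEF1 alternative exon, chr4:109002722-109002845, minus strand: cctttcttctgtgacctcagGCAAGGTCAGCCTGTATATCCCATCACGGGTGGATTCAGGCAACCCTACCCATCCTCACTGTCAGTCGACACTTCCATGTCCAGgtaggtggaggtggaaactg

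The 5′ bin of this exon (036) had 92 reads in the control, 48 in shRBM15#1 and 47 in shRBM15#2, a relative log2 fold change of -0.52 ± 0.27 (SE). The other main bin (035) had 81, 45 and 44 reads, with -0.43 ± 0.28. The exon on the other side of the site had values of the opposite sign. Its middle bin (039) had 90, 72 and 111 reads, with 0.43 ± 0.26 (SE). Bins 038 and 040 of the same exon were at 0.44 ± 0.28 and 0.39 ± 0.27.

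Expressed as a ratio of reads, bin 036 of the alternative exon to bin 039 of the upstream exon stood at 1.02 in the control, 0.667 in shRBM15#1 and 0.423 in shRBM15#2. Against bin 033, the next exon downstream, the ratios were 0.575, 0.457 and 0.362. Both lines were lower than the control in either ratio, and these ratios were computed after the bin values were seen. Bin 037, where an exon extends into the intron that holds the site, had 14, 14 and 18 reads.

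LEF1 coding sequences begin at 1 of 2 annotated start codons, each used by 3 protein-coding transcripts. The 2 stretches of 30 bases around the start codons are shown, with ATG in capitals, because transcripts from the nearer exon lack the residues that the far exon encodes, where LEF/TCF factors bind beta-catenin.
far 5′ exon, chr4:109088906-109088935, minus strand: agagccgccgggATGccccaactctccgga
nearer 5′ exon, chr4:109087419-109087448, minus strand: ttctctatcccaATGgcagaggtgagtacg

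The far exon (bins 053 to 057) had 224 reads in the control, 119 in shRBM15#1 and 177 in shRBM15#2. The nearer exon (bins 047 to 052) had 115, 134 and 109. The ratio of nearer to far was 0.513, 1.13 and 0.616, so that shRBM15#1 stood well above the control and shRBM15#2 a little above it. The nearer exon held the LEF1 bin with the smallest p, bin 047, which had 11, 21 and 16 reads and a relative log2 fold change of 1.18 ± 0.46 (SE). Bin 043 in the exon after it, with 37, 47 and 50 reads, gave 0.81 ± 0.32 (SE). These were the LEF1 bins that passed the unadjusted limit in a DEXSeq-type model fitted with DESeq2, and their adjusted p there was 1. By line, the log2 ratio of the share of bin 047 to its control share was 1.56 in shRBM15#1 and 0.80 in shRBM15#2.

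The reads at the far start codon could not be followed. Bins 053 to 055, which hold that codon, lie wholly inside exons of LEF1-AS1 on the other strand, and all 3 had 0 reads in every library. The RNA-seq did not record strand, and the deposited counts list ambiguous reads on a line of their own, with no rule stated for them. The values of the far exon therefore come from bins 056 and 057, upstream of its start codon.

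In TLE3, 63 of 81 bins were tested with diffSpliceDGE and none passed an unadjusted p under 0.05. The authors' paper names LEF1 and TLE3 among RIP-seq genes whose exon use changed in both the DEXSeq and MISO programs. Those programs were not run here. The relative values of the TLE3 bins ran from -0.88 to 1.05. The smallest p belonged to bin 001 at the 3′ end of the gene, with 44, 23 and 24 reads and -0.78 ± 0.37 (SE). The RIP-seq site fell inside bin 013, an intron stretch of 1186 bases that counts as exon only in an annotated retained-intron transcript. That bin had 46, 48 and 54 reads, with a relative log2 fold change of 0.27 ± 0.33, and its flanking exon bins 012 and 014 were at 0.25 ± 0.29 and 0.14 ± 0.31.

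The 7 TLE3 bins found in no transcript but the retained-intron one took 6.89% of TLE3 reads in control cells, 7.47% in shRBM15#1 and 8.21% in shRBM15#2. Per kilobase they stood at 0.758, 0.807 and 0.822 CPM, against 6.85, 6.69 and 6.14 for the other 74 bins. The share of TLE3 reads 5′ of the site was 74.0% in the control, 77.9% in shRBM15#1 and 73.6% in shRBM15#2, so the lines lay on either side of the control.

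In CTNNB1, 39 of 50 bins were tested, with a median size of the relative log2 fold change of 0.06, against 0.21 in LEF1 and 0.17 in TLE3. The summed reads of these genes were 57749, 9622 and 7851, so the medians also differ in counting error. The smallest p of CTNNB1 was at bin 014, with 16, 4 and 12 reads (-1.04 ± 0.68, SE). The share of its reads 5′ of the midpoint of its bins was 58.8%, 58.7% and 58.1%, while for LEF1 it was 26.9%, 31.1% and 30.9%. In TCF7, 4 of 69 bins were deep enough to test, and none of them passed an unadjusted p under 0.05. TCF7L1, TLE1, TLE2 and TLE4 had no bin of 30 summed reads, and TCF7L2 had 1 (bin 050, with 37, 35 and 28 reads), where the test needs at least 2 in a gene. Differences in their exon use were not detectable at this depth.

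Among other genes of the pathway, 101 were matched and 88 tested, and none passed an adjusted p under 0.01 in edgeR. Of the 88, 15 passed the filter on summed reads only through the knockdown lines. The counts by direction and by unadjusted p that follow include them and are a description. By unadjusted p under 0.05, 13 were higher and 8 lower, 23.9% of those tested against the 18.8% of all genes. The 13 include WNT5B, WNT7A, WNT8A, RSPO1, LGR5, DKK1, DKK2 and SFRP1, which passed the filter only through knockdown reads. The 8 lower genes do not include any such gene. The 23.9% is therefore no measure of more changes in the pathway than elsewhere. DESeq2 gave an adjusted p to 58 of the 88 and called 4 (LGR4, BAMBI, ID2 and PORCN) at an adjusted p under 0.01. Over all genes DESeq2 called 539. Of the 88, 45 were higher and 43 lower, with a median log2 fold change of 0.10, against 0.02 over all tested genes. For the 52 genes with at least 300 summed reads the median was -0.24, against -0.16 over all tested genes with 300 to under 3000 reads and -0.13 over those with 3000 or more. In edgeR's test, 3 of the 88 had an adjusted p under 0.05 in the higher direction and 1 in the lower, against 432 of all 24887 tested genes.

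The receptor LGR4, which binds R-spondins and strengthens Wnt signals, had 56 reads in the control, 346 in shRBM15#1 and 471 in shRBM15#2 (log2 fold change 2.89 ± 0.42, SE, edgeR adjusted p = 0.0148). BAMBI, a membrane pseudoreceptor of the TGF-beta family and a LEF/TCF target, had 55, 282 and 363 reads (2.57 ± 0.42, adjusted p = 0.0235). ID2, a target gene that encodes an inhibitor of bHLH factors, had 914, 2259 and 3016 (1.55 ± 0.27, adjusted p = 0.0268). In all 3 genes both lines were above the control.

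PORCN, the enzyme that lipidates Wnt ligands for secretion, had 834, 178 and 314 reads (-1.75 ± 0.35, edgeR adjusted p = 0.0454). CSNK1E, a casein kinase that transmits the signal at Dishevelled, had 4089, 2151 and 2179 reads (-0.88 ± 0.23, adjusted p = 0.106). NKD2, an inhibitor of Dishevelled, had 382, 158 and 100 reads (-1.51 ± 0.43, adjusted p = 0.126). Both lines lay below the control in each. The ligand genes WNT7A, with 3, 33 and 30 reads, and WNT8A, with 3, 39 and 24, passed the filter on summed reads only through the knockdown lines, so their difference is a description.

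By role, 10 of 12 tested ligand genes and 9 of 12 extracellular and membrane inhibitors had a log2 fold change above 0, with medians of 0.71 and 0.98, and 2 genes in each list had 300 summed reads. All tested genes with 30 to under 100 summed reads had a median of 0.61, and 5 genes in each of these lists, WNT7A and WNT8A among them, passed the filter only through knockdown reads. The 17 nuclear cofactors and 18 transducers, of which 15 in each list had at least 300 summed reads, had medians of -0.25 and -0.09, with 13 and 12 genes below 0. The 15 LEF/TCF target genes split into 7 above 0 and 8 below, with a median of -0.17. None of these lists held a gene past an adjusted p under 0.01. Listed RIP-seq sites were found in 7 of the 88 genes (7.96%, against the 3.76% of all tested genes and the 9.2% of the abundant ones): in introns of LRP5, CSNK1D, CTBP1 and NLK, and in the 3′ untranslated regions of HDAC1, HDAC2 and BIRC5.

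**Figure D5:**
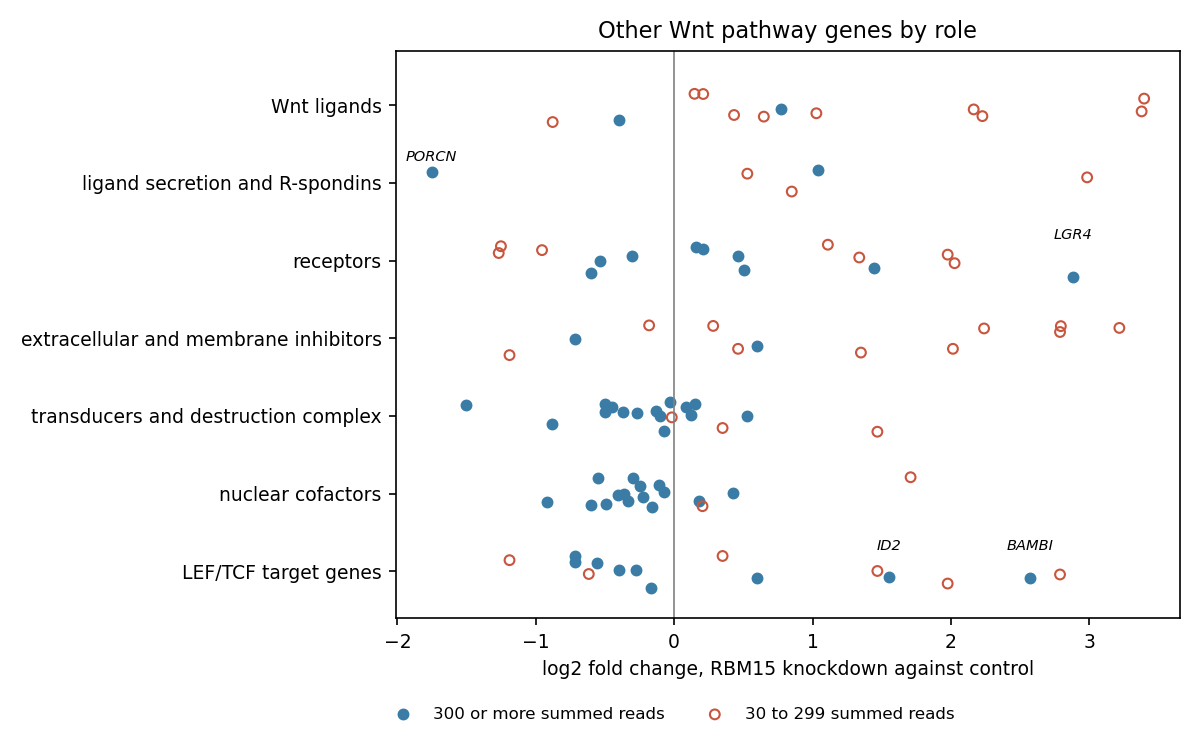
log2 fold change after knockdown (horizontal axis) of the tested genes of each Wnt pathway role (rows, points spread vertically to be visible), filled where the 3 libraries sum to 300 reads or more and open below that, with genes at an adjusted p under 0.05 named. Most open points of the ligand and inhibitor rows lie right of 0, and most filled points of the transducer and cofactor rows left of it.

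The protein-coding genes whose pair of line differences was most like that of LEF1, out of 3893 within 1 log2 unit of its level, were POLB, UBXN4 and POLR2M, at distances of 0.0075 to 0.0141 log2 units. For TLE3 they were CCNF, WDR59 and SS18 among 4158 genes, at 0.0105 to 0.0196. With 3 libraries such likeness is common: 130 genes lay within 0.1 of LEF1 and 112 within 0.1 of TLE3.

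The libraries carried the megakaryocytic label in part. ITGA2B, GATA1, TAL1 and FLI1 were abundant, and the 7 megakaryocytic markers matched summed to between 993 and 1295 CPM, but PF4 and GP9 had at most 5 reads in any library. That sum is mostly ITGA2B, with 45463, 21287 and 31658 reads (log2 fold change -0.76 ± 0.24, SE, adjusted p = 0.153), while ITGB3 had 311, 803 and 2702 (2.47 ± 0.58, SE, adjusted p = 0.0823). Of the 5 markers tested, 3 were higher and 1 lower by unadjusted p under 0.05, and none passed an adjusted p under 0.01. The 4 T-cell markers, of interest because LEF1 and TCF7 are also T-cell genes, summed to 3.76, 3.78 and 3.32 CPM, and the 4 B-cell markers to 1.86, 3.91 and 2.19. The 4 monocyte and granulocyte markers summed to 38.96, 34.6 and 63.7. That sum is mostly LYZ, with 1749, 1145 and 2658 reads. CSF1R had 134, 317 and 431 reads, CD14 13, 29 and 205, and MPO 32, 58 and 31. In shRBM15#1 the sum and LYZ were below the control, while CSF1R, CD14 and MPO were above it. None of the 4 passed an adjusted p under 0.01 in edgeR. The part of other cell types in the member values was not tested.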

How the data were processed

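MEG-01 cells were profiled by RNA-seq (control, 1 library, and RBM15 knockdown, 2) and RIP-seq (4 libraries). Paired reads were aligned by the authors with STAR to GRCh37, and reads per exon bin were deposited as raw counts without strand. RIP-seq counts per site were deposited by the authors after peak calling on all samples and selection with DESeq. HTSeq 0.6.0 is among the submitters' processing tools. The authors' fitted values, fold changes and p-values in both tables were not used.

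Bin counts were summed per gene. No source states how a read in several bins was counted, and the reads in 1-base bins point to a count in each, so sums may count some reads more than once. Lines that name no gene, ambiguous reads among them (23.2 to 32.0% of counts), were left out. Genes whose counts summed to 30 or more were tested with edgeR 4.0.16 (TMM, quasi-likelihood F-test, Benjamini-Hochberg over 24887 genes, called at an adjusted p under 0.01), and bins with diffSpliceDGE. The fit has 1 residual degree of freedom. The labels do not say whether libraries come from separate cultures beyond the hairpins. The p-values and standard errors rest on the spread between these lines, with the variance estimate shared across the genes or bins tested. They are therefore not a measure of the spread in a single gene alone. DESeq2 1.42.0, other size factors, filters and left-out lines were tried as alternatives. Python 3.11.15 and R 4.3.3 were used, and fits were tested on simulated data. Wilson and exact intervals are at 95%.

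The members and gene lists were chosen with earlier results of these data known. Named in each result were the members and RBM15, pathway genes at an adjusted p under 0.01 and up to 8 more by unadjusted p, the bin of each member with the smallest p, the bins beside a site, and the 3 genes most like LEF1 and TLE3. Other pathway genes, markers and LEF1 exon groups were named after their values were seen. Symbols came from GENCODE v44 lifted to GRCh37, whose LEF1 and TLE3 spans equal those of the deposited bins, and AES was matched through RefSeq synonyms. GP1BB had no match. Protein sequences were not used here.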

Additional observations from a re-analysis of the deposited data

Results flagged for a closer look

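The RIP-seq library labelled normal IgG that was left without a group held 72 reads at the LEF1 site and 71 at the TLE3 site, against 2 and 3 in the normal IgG library that has a group. Both values were marked because they lie in data outside the comparison and above the control library. The same library exceeded that control at all 1515 listed sites, so the difference was not particular to these genes, and the label was not corrected here.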

How the results depend on the processing

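No paired analysis was possible because the control has 1 library. The number of genes called at an adjusted p under 0.01 was 86, and it was 191 with RLE size factors, 801 with no filter on low counts, 539 with DESeq2, and 432 at an adjusted p under 0.05; members called were 0 in each, of 9 tested or, with DESeq2, of the 6 to which it gave an adjusted p. Pathway genes called went from 0 to 1 (LGR4) with RLE, 5 with no filter (LGR4, BAMBI, ID2, PORCN and NKD2), 4 with DESeq2 and 4 at an adjusted p under 0.05, the last a limit added after seeing the data. The pathway's median log2 fold change of 0.10 became -0.031 with no filter, and was -0.045 without replicate 1 and 0.088 without replicate 2. The unfiltered fit moved the median of all genes by -0.13, and there TCF7 was at -0.087, TCF7L1 at -0.014 and CTNNB1 at -0.058, reversed in sign.

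Leaving out shRBM15#1 or shRBM15#2 put TCF7 at -0.32 or 0.36, TCF7L1 at -0.29 or 0.44, TCF7L2 at -0.54 or 0.21 and CTNNB1 at 0.29 or -0.19. With 1 line a side there is no test. Bins called were 3392, against 8733 with at least 1 count, 736 with at least 300, and 5174 with a DEXSeq-type model in DESeq2. Member bins called went from 0 to 1 with at least 1 count (TLE3 bin 005) and 2 with the DEXSeq-type model (LEF1 bins 043 and 047). The adjusted p of these 3 bins was 1. Among all listed sites, 6.47% had fewer anti-RBM15 reads than LEF1 and 20% fewer than TLE3. The 4 RIP-seq libraries by label gave no combined value, since 2 have no group. The causes of these differences were not tested.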
